A study of Mus musculus with 6 samples.

Results

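The genes described here are 10 genes of tissue macrophages and of complement component C1q, measured in the mouse cochlea. They are Csf1r, Cx3cr1, Adgre1, Cd68, C1qa, C1qb, C1qc, Mrc1, Lyve1 and Cd163. They were chosen by name, and all 10 were found among the 48709 mouse gene rows of the count table by Ensembl gene identifier. RNA-seq of ribosome-depleted total RNA was done on cochleae of 3 knock-in mice (genotype Hgfdel10Neo/del10Neo) and 3 wild-type littermates (Hgf+/+). The knock-in mice were homozygous for an Hgf allele that lacks 10 bp of intron 5 and whose name also carries Neo, a selection cassette. Every cell of these mice carries the allele. Hgf encodes the growth factor that binds the receptor Met, and variants of the human gene cause a recessive deafness. The mice were between 5 and 27 weeks old. Sources used here give no age, sex or strain for the single animals.

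Macrophages of the cochlea lie along the vessels of the stria vascularis, among the fibrocytes of the spiral ligament and around the neurons of the spiral ganglion. Their growth and survival depend on signalling through the receptor Csf1r, and they take up debris through scavenger receptors. C1q is the recognition molecule of the classical complement pathway. It is built from equal numbers of A, B and C chains, and tissue macrophages are its main source. C1q binds the proteases C1r and C1s, which cleave C4 and C2 to form the enzyme that cleaves C3.

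The libraries held between 24005234 and 42312291 mouse gene counts. Values are CPM, the counts of a gene per 1000000 counts of its library, on totals scaled by TMM, a method that corrects for differences in library composition. Hgf was at 9.23, 10.4 and 10.5 CPM in knock-in and at 15.4, 16.2 and 15.2 CPM in wild-type libraries, with no overlap, but did not pass the threshold in the edgeR quasi-likelihood test (log2 fold change -0.63, adjusted p = 0.246). Hgf did pass in DESeq2 (-0.64, adjusted p = 0.014) and in edgeR with no filter on low counts (-0.64, adjusted p = 0.038). The library labelled knock-in replicate 3 held 5 counts of Neo, against 71 and 199 in knock-in replicates 1 and 2 and 5, 8 and 10 in the wild-type libraries, although its label names the Neo allele. Xist was abundant in knock-in replicate 3 and wild-type replicate 2, and the other 4 libraries held Ddx3y, a gene of the Y chromosome. Results are therefore also given without knock-in replicate 3 and within the libraries with few Xist counts. All 9 genes of a list of cochlear markers were detected, and their summed level was between 2866 and 3365 CPM in knock-in and between 2701 and 3132 CPM in wild-type libraries.

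No difference between knock-in and wild-type cochlea passed the test for any of the 10 genes. The edgeR quasi-likelihood test, adjusted over 20733 genes by the Benjamini-Hochberg method with a threshold of 0.05, called 0 of 10, where 0.0338% of all genes tested were called, 0.00965% higher and 0.0241% lower. Their edgeR adjusted p lay between 0.966 and 0.989, and 0 of the 10 had an unadjusted p under 0.05, as 4.5% of all genes did. Log2 fold changes of knock-in over wild-type ran between -0.33 for Cd68 and 0.34 for Lyve1, with 8 negative and 2 positive. Their median was -0.08, beside 0.00082 over all genes tested. The groups overlapped for all 10 genes, while 8.72% of the genes tested had groups without overlap. DESeq2 run on the same counts also called 0 of 10, and in the authors' deposited table each of the 10 had an adjusted p of 0.9997.

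**Figure D1:**
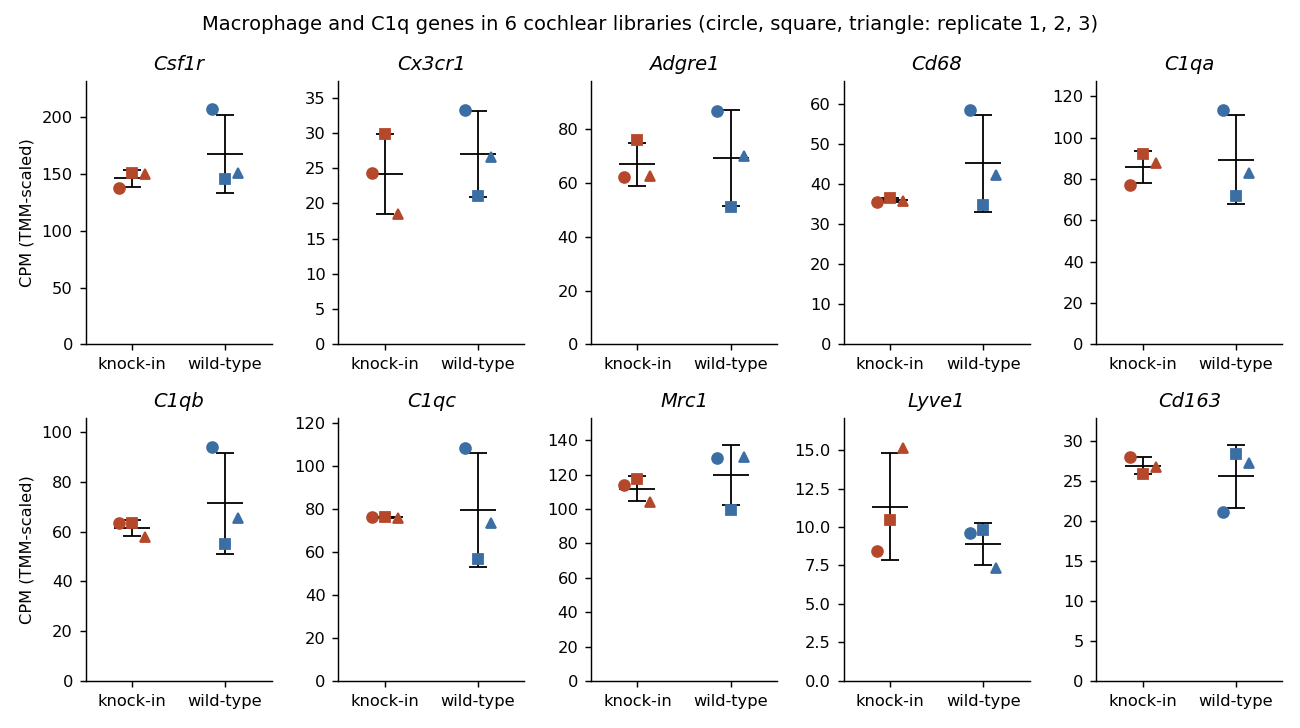
CPM of the 10 genes in the 3 knock-in and 3 wild-type libraries, each panel on its own axis from 0; horizontal bars are group means and whiskers are SD (n = 3 per group). The groups overlap in every panel, and wild-type replicate 1 (blue circle) is the highest library for 7 of the 10 genes.

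Csf1r encodes the receptor for the cytokines CSF1 and IL-34, on which macrophages depend. It was at 138, 151 and 150.2 CPM in knock-in libraries 1 to 3, against 207, 146 and 151 CPM in wild-type libraries 1 to 3. Wild-type replicate 1 stood apart, and the other 5 libraries lay close together. The group means were 146 ± 7.63 CPM in knock-in and 168 ± 34.2 CPM in wild-type cochlea (SD, n = 3 each). The log2 fold change was -0.20 (SE 0.141; 95% interval -0.52 to 0.12). Without wild-type replicate 1 it was -0.02, and without knock-in replicate 3 it was -0.22. Csf1r spans 61100598 to 61132149 on the forward strand of chromosome 18 (GRCm38), and 873 of its exon bases lie opposite an exon of Hmgxb3, so reads of that stretch may not be separable. Because these are bulk samples, fewer macrophages and less of an RNA per macrophage cannot be told apart for any of the 10 genes.

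Adgre1 encodes F4/80, the surface protein by which mouse macrophages are commonly identified. Its level was 62.1, 76.2 and 62.6 CPM in knock-in and 86.9, 51.1 and 70.2 CPM in wild-type libraries. The highest and the lowest library were both wild-type, and all knock-in libraries lay between them. Cd68, which encodes a lysosomal membrane glycoprotein of macrophages and osteoclasts, was at 35.6, 36.6 and 35.9 CPM in knock-in and at 58.6, 34.8 and 42.3 CPM in wild-type libraries. Cd68 had the lowest log2 fold change of the 10, -0.33 (SE 0.168; 95% interval -0.70 to 0.05), with an unadjusted edgeR p of 0.082 and an adjusted p of 0.966. Without wild-type replicate 1 it was -0.10, and without knock-in replicate 3 it was -0.32. For Adgre1 the log2 fold change was -0.05 (95% interval -0.45 to 0.35), and it turned to 0.14 without wild-type replicate 1 and to 0.0059 without knock-in replicate 1. Adgre1 spans 57358691 to 57483527 on the forward strand of chromosome 17, Cd68 spans 69664213 to 69666153 on the reverse strand of chromosome 11, and neither overlaps another annotated gene.

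Cx3cr1 encodes the receptor for the chemokine fractalkine and is high in resident macrophages and in one class of monocytes. It lies on the reverse strand of chromosome 9 from 119901616 to 120069879, and shares 78 exon bases with an antisense RNA gene. It was at 24.3, 29.9 and 18.5 CPM in knock-in and at 33.2, 21.04 and 26.6 CPM in wild-type libraries. Its lowest values in each group were in the library with abundant Xist, as were those of C1qb and Mrc1. Knock-in values of C1qc, at 76.4, 76.2 and 76.1 CPM, were too close to order. The lowest knock-in library was replicate 1 for Csf1r, Adgre1, Cd68, C1qa and Lyve1 and replicate 2 for Cd163. The log2 fold change of Cx3cr1 was -0.15 (SE 0.200; 95% interval -0.60 to 0.30). Without knock-in replicate 3 it was 0.00698, and without wild-type replicate 1 it was 0.022. Of the 4 genes Csf1r, Adgre1, Cd68 and Cx3cr1, only Cx3cr1 had a coefficient of variation over 20% in the knock-in libraries (23.5%), whereas in the wild-type libraries all 4 lay between 20.4% and 26.9%.

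The C1q chains are encoded by neighbouring genes on the reverse strand of chromosome 4 (GRCm38): C1qb from 136880129 to 136886187, C1qc from 136889804 to 136893065 and C1qa from 136895917 to 136898803. None of them overlaps another annotated gene. C1qa, the gene of the A chain, was at 77.0, 92.3 and 87.9 CPM in knock-in and at 114, 71.9 and 82.8 CPM in wild-type libraries. C1qb, the gene of the B chain, was at 63.6, 63.3 and 57.9 CPM in knock-in and at 94.0, 54.9 and 65.4 CPM in wild-type libraries. C1qc, the gene of the C chain, was at 76.4, 76.2 and 76.1 CPM in knock-in and at 109, 56.7 and 73.6 CPM in wild-type libraries. All 3 genes were highest in wild-type replicate 1 and lowest in wild-type replicate 2, with every knock-in library between these.

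The log2 fold changes were -0.06 (SE 0.161; 95% interval -0.42 to 0.30) for C1qa, -0.21 (SE 0.174; -0.60 to 0.18) for C1qb and -0.06 (SE 0.196; -0.50 to 0.38) for C1qc. Without wild-type replicate 1 all 3 turned positive, at 0.15 for C1qa, 0.033 for C1qb and 0.23 for C1qc, and none was called. Without knock-in replicate 1, C1qa was at 0.017. Without knock-in replicate 3 they were -0.08, -0.17 and -0.06 in the same order of genes. The coefficient of variation of C1qc was 0.214% among the knock-in libraries and 33.3% among the wild-type libraries. Counting error alone is 2.44% for its lowest count, 1686 in wild-type replicate 2, and little less for 1757, the lowest knock-in count. The knock-in libraries thus lay closer together than counting error would place them on average.

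The ratio of 2 chains within a library does not depend on its total. C1qa over C1qb, in CPM, was 1.21, 1.46 and 1.52 in knock-in and 1.21, 1.31 and 1.27 in wild-type libraries. The ratio of C1qc over C1qb was 1.20, 1.20 and 1.31 in knock-in and 1.16, 1.03 and 1.13 in wild-type libraries. C1qc over C1qb was higher in each knock-in library than in each wild-type library, as was C1qa over Csf1r, at 0.560, 0.610 and 0.586 in knock-in and 0.548, 0.493 and 0.549 in wild-type libraries. These were the 2 of 11 ratios inspected whose groups did not overlap, and they were not tested. The 11 ratios share genes, and how often ratios of other gene pairs lack overlap was not computed. For single genes, 8.72% of those tested had groups without overlap. Across the 6 libraries the ratios of 2 C1q chains differed at most 1.27-fold. Between the highest and lowest library C1qa itself differed 1.58-fold, C1qb 1.71-fold and C1qc 1.92-fold. Such narrow ratios were not particular to the C1q chains, as Cd68 over Csf1r differed 1.18-fold and C1qa over Csf1r 1.24-fold. The other ratios inspected differed between 1.38-fold, for Mrc1 over Csf1r, and 2.59-fold, for Lyve1 over Mrc1.

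Sequence before the start of 4 of the genes is shown, C1qb and C1qc and, beside them, Mrc1 and Cd163. For C1qa no such sequence was available. The C1q genes peaked in wild-type replicate 1 and Mrc1 and Cd163 did not, but Csf1r, Cx3cr1, Adgre1 and Cd68 peaked there too. Whether the marked motifs have a part in the levels was not tested. The bases come from RefSeq (GRCm38.p6), 5′ to 3′ on the strand of the gene, and stop before both the RefSeq and the GENCODE start. The stretch of C1qc is shorter because its GENCODE start lies further upstream. Capitals mark GAGGAA, the core of sites bound by the myeloid factor PU.1, and TGCTGA, the short form of the element bound by MAF factors, on either strand (TTCCTC and TCAGCA on the other strand). The motifs can overlap by their shared letters, but no printed match does.
C1qb, chr4:136886201-136886400, reverse strand: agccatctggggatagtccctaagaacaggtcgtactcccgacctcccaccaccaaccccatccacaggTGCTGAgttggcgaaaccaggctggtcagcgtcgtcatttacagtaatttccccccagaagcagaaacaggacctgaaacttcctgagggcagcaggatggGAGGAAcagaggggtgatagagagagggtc
C1qc, chr4:136893066-136893164, reverse strand: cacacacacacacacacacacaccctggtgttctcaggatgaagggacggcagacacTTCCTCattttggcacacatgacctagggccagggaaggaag
Mrc1, chr2:14229192-14229391, forward strand: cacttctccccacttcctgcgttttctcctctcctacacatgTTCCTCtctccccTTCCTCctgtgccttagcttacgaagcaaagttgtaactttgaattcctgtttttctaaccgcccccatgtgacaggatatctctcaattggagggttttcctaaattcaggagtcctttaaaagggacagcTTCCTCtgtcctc
Cd163, chr6:124304451-124304650, forward strand: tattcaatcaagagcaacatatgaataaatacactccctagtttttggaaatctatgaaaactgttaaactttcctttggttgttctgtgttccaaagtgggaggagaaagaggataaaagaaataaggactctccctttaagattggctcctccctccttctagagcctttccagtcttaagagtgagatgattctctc

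The 250 bases before the RefSeq start were searched. GAGGAA had 3 matches for Mrc1, 1 for C1qb at position -30, 1 for C1qc at position -193 and 0 for Cd163, where positions count back from the start and give the leftmost base of the match. Cd68, whose sequence is not printed, had 1 match at position -225, and Cx3cr1 had 0. Csf1r, Adgre1, C1qa and Lyve1 were not searched. The GAGGAA motif was in 23.3% of all 32851 such windows. TGCTGA had 1 match for C1qb and 0 for C1qc, Mrc1, Cd163, Cd68 and Cx3cr1, and was in 16.1% of all windows. A match describes the letters and shows no binding.

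Mrc1, Lyve1 and Cd163 encode receptors that are high in macrophages along vessels and in connective tissue. Mrc1, the mannose receptor gene, was at 114, 118 and 104 CPM in knock-in and at 129.9, 99.8 and 130.1 CPM in wild-type libraries. Its log2 fold change was -0.10 (SE 0.122; 95% interval -0.37 to 0.18), and -0.05 without knock-in replicate 3. Of the 10 genes Mrc1 had the smallest ratio of its highest to its lowest library, 1.30-fold. Its SD of log2 CPM over the 6 libraries was 0.160, beside 0.159 for Cd163. Mrc1 lies on the forward strand of chromosome 2 from 14229392 to 14332057.

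Cd163 encodes the scavenger receptor for haemoglobin bound to haptoglobin. It was at 28.0, 25.9 and 26.7 CPM in knock-in and at 21.04, 28.3 and 27.2 CPM in wild-type libraries. Wild-type replicate 1, the highest library for Csf1r, Cx3cr1, Adgre1, Cd68 and the 3 C1q genes, was the lowest for Cd163. Cd163 over Csf1r was 0.204, 0.171 and 0.178 in knock-in and 0.101, 0.194 and 0.181 in wild-type libraries. The log2 fold change of Cd163 was 0.07 (SE 0.127; 95% interval -0.21 to 0.36), and it turned to -0.05 without wild-type replicate 1. Cd163 lies on the forward strand of chromosome 6 from 124304656 to 124330527.

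Lyve1 encodes a hyaluronan receptor of lymphatic endothelium and of a class of tissue macrophages, and lies on the reverse strand of chromosome 7 from 110850607 to 110863239. Its level was 8.41, 10.4 and 15.2 CPM in knock-in and 9.60, 9.81 and 7.33 CPM in wild-type libraries. Knock-in replicate 3 was the highest, and knock-in replicate 1 lay among the wild-type libraries. The log2 fold change was 0.34 (SE 0.215; 95% interval -0.14 to 0.83), the highest of the 10, with an unadjusted edgeR p of 0.142 and an adjusted p of 0.966. Without knock-in replicate 3 it was 0.083. The summed level of 7 other genes of lymphatic endothelium was 179, 209 and 214 CPM in knock-in and 198, 217 and 192 CPM in wild-type libraries, and no member of that list was at 0. Whether lymphatic endothelium had a part in the Lyve1 values was not tested.

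**Figure D2:**
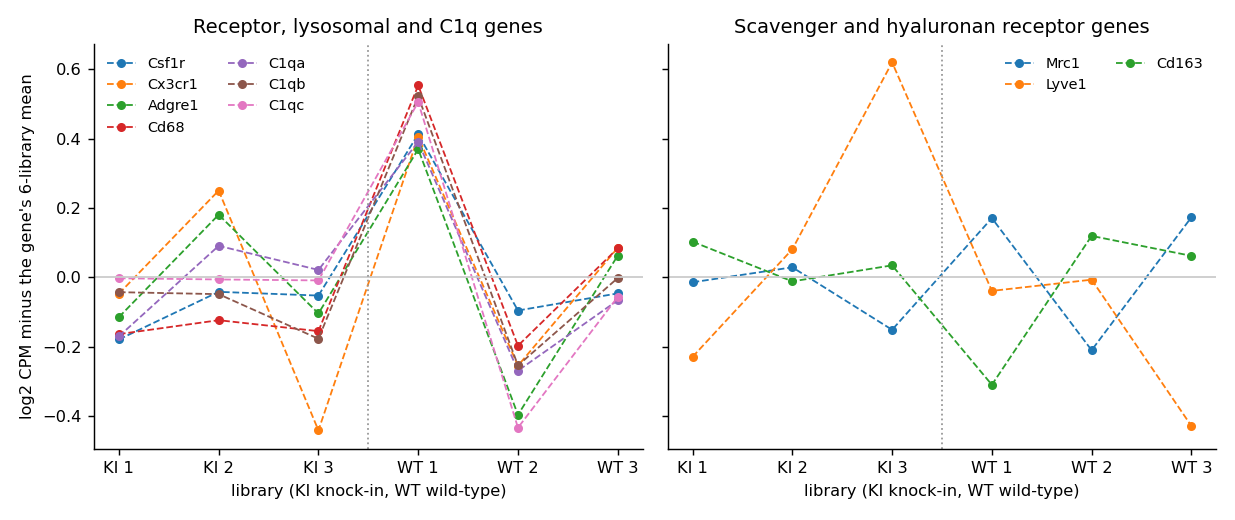
Log2 CPM of each gene minus its mean over the 6 libraries (points; dashed lines join the points of a gene and have no meaning between libraries; KI, knock-in; WT, wild-type). The 7 genes on the left all peak in wild-type replicate 1, whereas on the right Cd163 is lowest there and Lyve1 peaks in knock-in replicate 3.

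Levels of different genes were compared per kilobase of merged exon length. C1qa was the highest in both groups, at 82.4 ± 7.57 CPM per kilobase in knock-in and 86.0 ± 20.8 in wild-type (SD, n = 3 each). C1qb followed at 56.6 ± 2.94 CPM per kilobase in knock-in and 65.7 ± 18.6 in wild-type, then C1qc, Cd68, Csf1r, Adgre1 and Mrc1. A gap separated Mrc1, at 17.6 ± 1.13 CPM per kilobase in knock-in and 18.8 ± 2.74 in wild-type, from Cx3cr1, Cd163 and Lyve1, which lay at 5.38, 4.92 and 3.88 CPM per kilobase in knock-in and 5.99, 4.68 and 3.05 in wild-type. The order was the same in both groups. Each of the genes from C1qa to Mrc1 was above the next lower gene in 6 of 6 libraries, while Cx3cr1 was above Cd163 in 4 and Cd163 above Lyve1 in 5 of 6.

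Some of these places depended on the length used. Merged exons of C1qc span 1931 bases, but its longest protein-coding transcript has 1203 bases. Per kilobase of the longest coding transcript, C1qc was at 63.4 ± 0.136 in knock-in and 66.2 ± 22.0 in wild-type, next to C1qb at 56.6 and 65.7, and C1qc was above C1qb in 5 of 6 libraries. On that length Csf1r was above Cd68, Mrc1 above Adgre1 and Cd163 above Cx3cr1 in 4 of 6 libraries each, so these pairs had no settled order. C1qa stayed the highest, and Cx3cr1, Cd163 and Lyve1 the lowest, in 6 of 6 libraries with both lengths.

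**Figure D3:**
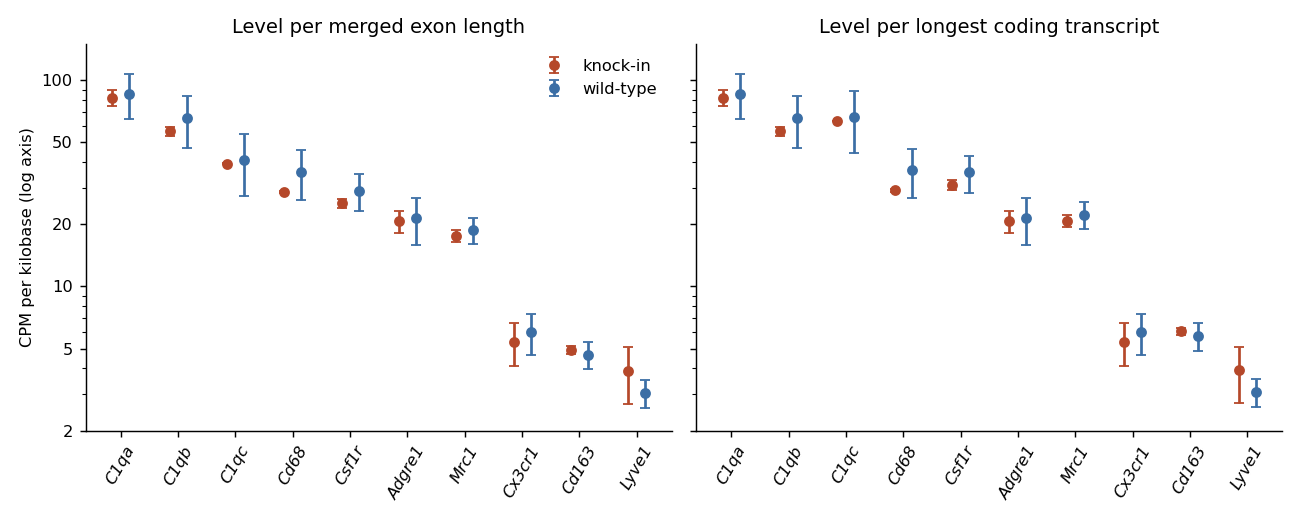
Mean CPM per kilobase of the 10 genes on a log axis, with SD (n = 3 per group), using merged exon length on the left and the longest protein-coding transcript on the right; knock-in is red and wild-type blue. C1qa is highest and Cx3cr1, Cd163 and Lyve1 are lowest in both panels, while C1qc moves next to C1qb on the right.

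The coefficient of variation was smaller within the knock-in group than within the wild-type group for 8 of the 10 genes, all but Cx3cr1 and Lyve1. How often this held over all genes tested was not computed, so it is not shown to be particular to these genes. Coefficients of variation in the knock-in libraries ran from 0.214% for C1qc to 30.5% for Lyve1, and in the wild-type libraries from 14.6% for Mrc1 to 33.3% for C1qc. The sum of the 10 genes was 627, 680 and 635 CPM in knock-in and 863, 574 and 676 CPM in wild-type libraries. Wild-type replicate 1 was the highest library for 7 of the 10 genes and wild-type replicate 2 the lowest for 6. Wild-type replicate 1 also had the highest sums of the lists of antigen presenting cells, of osteoclasts, of erythroid cells and of B lineage cells. The same held for the core macrophage, perivascular and tissue macrophage, growth factor and complement receptor lists. Neutrophil and monocyte sums were instead highest in wild-type replicate 3, and those of microglia and classical complement genes in knock-in replicate 3. Sums of the 9 antigen presenting genes were between 628 and 758 CPM in knock-in and between 650.1 and 1055 CPM in wild-type libraries. Osteoclast sums, over 9 genes, were between 747 and 984 CPM in knock-in and between 849.6 and 1153 CPM in wild-type libraries. B lineage sums, over 8 genes, were between 212 and 388 CPM in knock-in and between 239.8 and 458 CPM in wild-type libraries. No gene of the antigen presenting, osteoclast and B lineage lists was at 0 in every library. The part of these cells in the values of the 10 genes was not tested.

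Within the 4 libraries with few Xist counts, 2 of each group, knock-in over wild-type log2 ratios of mean CPM lay between -0.48 for Cd68 and 0.16 for Cd163 and for Lyve1. The same 8 genes were below 0 as with all libraries. In the 2 libraries with abundant Xist, 1 of each group, 8 of the 10 log2 ratios were positive, among them C1qc at 0.42 and Lyve1 at 0.63, and those of Cx3cr1 and Cd163 were -0.19 and -0.08. With 1 library per group these ratios have no replicate check. With the level of Xist as a covariate, edgeR called 0 of the 10 genes, and each kept its direction.

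**Figure D4:**
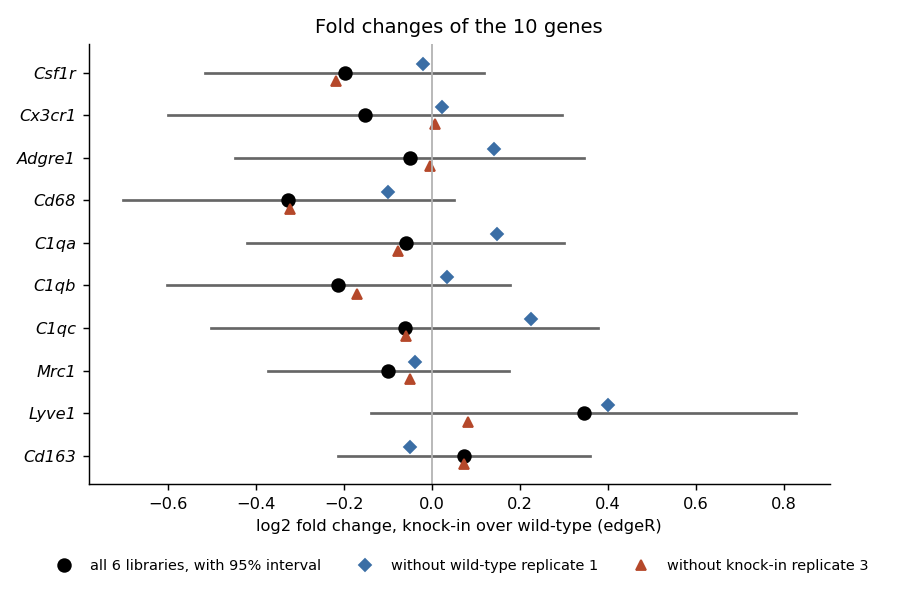
Log2 fold change of knock-in over wild-type for the 10 genes in edgeR (black points) with 95% intervals (lines), and the values without wild-type replicate 1 (blue diamonds) or without knock-in replicate 3 (red triangles). Every interval includes 0, and 6 of the 10 genes lie on the other side of 0 without wild-type replicate 1.

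The ligands of these receptors were measured in the same libraries. Csf1 was at 37.6, 44.8 and 45.7 CPM in knock-in and at 56.4, 49.1 and 40.9 CPM in wild-type libraries, and Il34 at 7.99, 6.72 and 7.23 against 9.07, 7.50 and 8.45 CPM. Both encode ligands of Csf1r, and both groups overlapped. Cx3cl1, the gene of fractalkine, was at 23.9, 25.2 and 30.9 CPM in knock-in and at 35.9, 35.1 and 28.7 CPM in wild-type libraries, with a log2 fold change of -0.32 (SE 0.134; edgeR unadjusted p = 0.0403, adjusted p = 0.966). Log2 fold changes of Csf2ra and Csf2rb, subunits of the GM-CSF receptor, were -0.04 and -0.09. The list of macrophage growth factors, fractalkine and GM-CSF receptor subunits had 6 tested genes. None of the 6 passed the threshold, and all had negative log2 fold changes. Without wild-type replicate 1 Csf2ra was at 0.052 and Csf2rb at 0.037, while Csf1, Il34 and Cx3cl1 stayed negative.

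Other macrophage genes did not pass the threshold either. Of 17 core macrophage genes, 0 were called, 13 lay below 0 in log2 fold change, and the median was -0.06. Spi1, which encodes the transcription factor PU.1, had a log2 fold change of -0.08, Ptprc, the gene of the leukocyte antigen CD45, -0.05, and Tyrobp, a signalling adaptor gene, -0.06. Trem2, a lipid receptor gene, had 0.04, Aif1, which encodes the actin-binding protein Iba1, -0.24, and Laptm5, a lysosomal protein gene, -0.35. Without wild-type replicate 1 Laptm5 was at -0.12. Itgam, the gene of the complement receptor chain CD11b, was at 21.4, 14.4 and 19.5 CPM in knock-in and at 27.5, 21.8 and 25.9 CPM in wild-type libraries, without overlap (log2 fold change -0.44, SE 0.158; edgeR unadjusted p = 0.0194, adjusted p = 0.966). Mertk, a receptor gene for apoptotic cells, lay the other way, at 54.2, 58.4 and 62.6 CPM in knock-in and 47.3, 53.6 and 49.1 CPM in wild-type libraries (log2 fold change 0.22; edgeR adjusted p = 0.966). Non-overlapping groups with knock-in below occurred in 4.02% and with knock-in above in 4.7% of all genes tested.

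Of 14 genes of perivascular and tissue macrophages, 0 were called, and their median log2 fold change was -0.03. F13a1, the coagulation factor XIII A chain gene, had -0.04, Pf4, a chemokine gene also of platelets, 0.26, Clec10a, a lectin gene, 0.24, and Folr2, a folate receptor gene, 0.13 at under 1 CPM in each library. Among 7 tested genes of microglia and parenchymal macrophages, 0 were called and 5 had positive log2 fold changes, with a median of 0.09. P2ry12, a nucleotide receptor gene, had a log2 fold change of 0.10, Tmem119 less than 0.01 in size, and Hpgds, a prostaglandin synthase gene, 0.15. Siglech was at 14.4, 15.4 and 14.7 CPM in knock-in and at 10.6, 14.2 and 10.6 CPM in wild-type libraries, without overlap (log2 fold change 0.33; edgeR unadjusted p = 0.0387, adjusted p = 0.966). Siglech is also a marker of plasmacytoid dendritic cells.

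Downstream of C1q, no gene of the classical complement pathway passed the threshold. Of 6 tested genes, 0 were called, with a median log2 fold change of -0.03. C1ra, a gene of the protease C1r, was at 20.7, 25.4 and 33.6 CPM in knock-in and at 28.1, 28.0 and 22.2 CPM in wild-type libraries. C1s1, a gene of the protease C1s, was at 18.1, 19.3 and 29.7 CPM in knock-in and at 25.0, 24.8 and 20.7 CPM in wild-type libraries. Among the knock-in libraries both were highest in replicate 3, where none of the C1q genes was at its knock-in maximum. C4b, a gene of component C4, had a log2 fold change of -0.12, C2 had 0.05, and Serping1, the gene of the C1 inhibitor, -0.16. C4a had 0.76, at under 1.3 CPM in each library, without overlap and not past the threshold (edgeR adjusted p = 0.966). Values of C4a and C4b, of C1ra and C1rb and of C1s1 and C1s2 are uncertain, because each pair is nearly identical and the counting could divide its reads.

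The central component gene C3 was at 299, 233 and 327 CPM in knock-in and at 342, 254 and 262 CPM in wild-type libraries, with equal group means of 286 CPM. Of 8 tested genes of C3, the alternative and lectin pathways and the terminal components, 0 were called, with a median log2 fold change of -0.01. Cfd, which encodes factor D and is abundant in fat cells, was at 114, 72.9 and 530.1 CPM in knock-in and at 33.2, 74.1 and 59.8 CPM in wild-type libraries (log2 fold change 2.10, SE 0.645; edgeR adjusted p = 0.966). Knock-in replicate 3 stood far above the others, and knock-in replicate 2 lay within the wild-type range. The summed level of the 8 genes of the adipocyte list was likewise highest in knock-in replicate 3 and lowest in wild-type replicate 1, at 444, 193 and 957 CPM in knock-in and 102, 188 and 206 CPM in wild-type libraries, with no gene at 0. The part of these genes in the Cfd value was not tested. Without knock-in replicate 3 its log2 fold change was 0.74. Cfd passed the threshold in edgeR with no filter on low counts (adjusted p = 0.0224). Masp1, a lectin pathway protease gene, lay at -0.30 in log2 fold change, and at -0.05 without wild-type replicate 2.

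Complement receptors and regulators were also without a call, 0 of 14 tested, with a median log2 fold change of -0.06. Receptor genes of the fragments C3a and C5a, C3ar1 and C5ar1, had log2 fold changes of -0.07 and -0.24. Itgb2, the integrin chain that pairs with CD11b, had -0.19, and -0.03 without wild-type replicate 1. Cfi, the gene of factor I, had -0.49, at between 0.303 and 1.08 CPM.

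Cells related to macrophages or sharing some of the 10 genes were described by their own lists. The 8 tested monocyte genes had a median of -0.04 in log2 fold change, with Ccr2, the chemokine receptor gene of inflammatory monocytes, at 0.05. Vcan, a proteoglycan gene of monocytes and of connective tissue, was at 0.41, and Nr4a1, an immediate early gene that also marks one class of monocytes, at -1.35, each without overlap and not past the threshold (edgeR adjusted p = 0.966 for both). Nr4a1 was at 11.3, 12.03 and 9.79 CPM in knock-in and at 54.8, 17.3 and 12.9 CPM in wild-type libraries, so wild-type replicate 1 was again the highest, and without it the log2 fold change was -0.45. Antigen presentation and dendritic cell genes had a median of -0.13 over 9, with H2-Eb1 at -0.24 and H2-Ab1 at -0.22. Osteoclast genes had -0.08 over 9, with Calcr at 0.59 and Acp5 at -0.27.

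Marrow cell types that a dissected cochlea could hold had lists of their own. The neutrophil list summed to 9623, 11706 and 11982 CPM in knock-in and 11681, 9135 and 12903 CPM in wild-type libraries, and the erythroid list to 9237, 11348 and 12543 CPM in knock-in and 13264, 8695 and 12469 CPM in wild-type libraries. Ahsp of the erythroid list was not found in the count table, and no other gene of either list was at 0 in every library. Medians were -0.13 over 10 neutrophil, -0.11 over 8 erythroid and -0.24 over 8 B lineage genes, with Ngp at -0.34, Elane at -0.29, Slc4a1 at -0.30, Hba-a1 at -0.22, Rag1 at -0.46 and Cd79a at -0.32. None of these genes was called. Some of the values rested on 1 library: without wild-type replicate 1 Elane was at -0.06, Hba-a1 at 0.05, Rag1 at -0.15 and Cd79a at -0.04, and without knock-in replicate 3 Rag1 was at -0.15 and Cd79a at -0.01. The lymphatic endothelium genes Reln and Pdpn had log2 fold changes of -0.14 and 0.15.

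**Figure D5:**
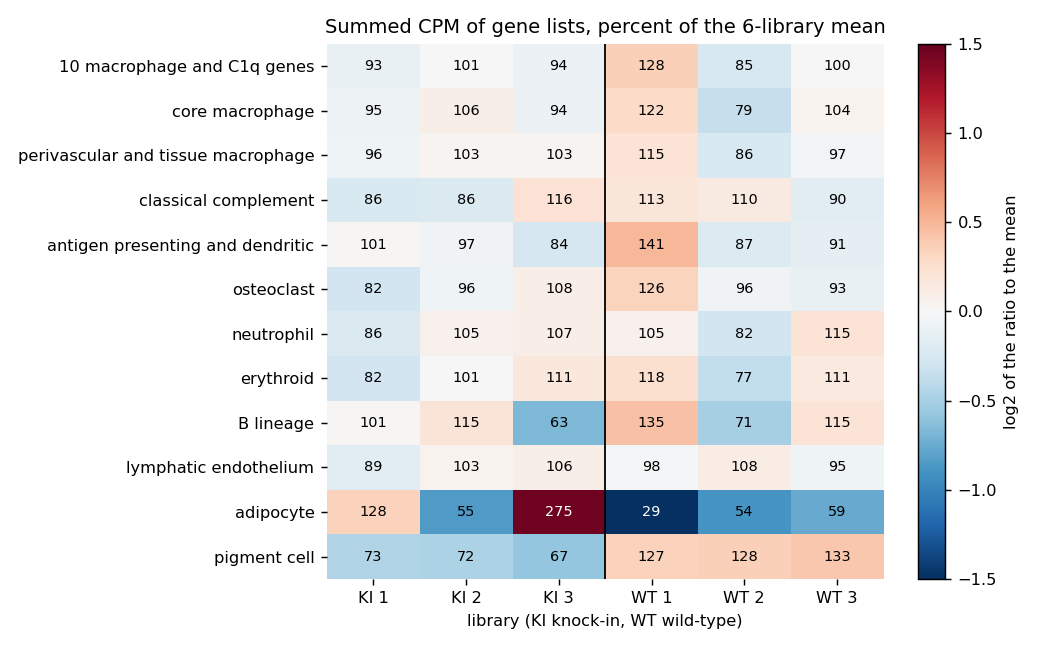
Summed CPM of each gene list in each library as a percent of its mean over the 6 libraries (numbers), with colour showing the log2 ratio to that mean; KI, knock-in; WT, wild-type. The 10 genes and the core macrophage list are highest in WT 1 and lowest in WT 2, while the pigment cell list alone among these rows is below its mean in every knock-in and above it in every wild-type library.

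Pigment cell genes, a list chosen with earlier results of these data known, are given for comparison only. Of 11 tested, 4 fell (Dct, Tyr, Mlana and Slc45a2), where 0.0241% of all genes were called lower, and their summed level was 169.9, 166 and 155 CPM in knock-in and 295, 297 and 307 CPM in wild-type libraries. Dct and Slc45a2, genes of melanin synthesis and of melanosomal transport, had log2 fold changes of -2.25 and -2.69 (edgeR adjusted p = 0.000179 and 0.00153). Without knock-in replicate 3 or without wild-type replicate 3, 2 of the 11 were called. The median of the 8 adipocyte genes was 1.57 in log2 fold change, with Cidec at 2.08 and Pparg at 0.74, and 0 were called. All 8 had an unadjusted edgeR p under 0.05, against 4.5% of all genes tested. Cidec and Pparg were among 4 with knock-in above without overlap, against 4.7% of all genes tested. Leaving out knock-in replicate 3 gave 1.21 for Cidec and 0.51 for Pparg, and with no filter on low counts 4 of the 8 were called, Cidec among them. Otos and Kcnj10, of spiral ligament fibrocytes and strial intermediate cells, had -0.51 and -0.43 and were not called. Both had knock-in below without overlap (edgeR unadjusted p = 0.00359 and 0.00594), as 4.02% of all genes tested did.

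The genes whose pattern over the 6 libraries was most like that of the 10 were looked for among 14849 named genes with a mean of at least 1 CPM. Likeness was the root mean square difference between standardized log2 CPM, where 0 means the same pattern, over 6 libraries that share their totals. For the mean of Csf1r, Cx3cr1, Adgre1 and Cd68 the nearest were Tgif1 (0.0783), Il1b, Prelid1, Gimap4 and Etv6 (0.173). For the mean of the C1q genes they were Lsp1 (0.131), Hes1, Taf6, Arpc1b and Cfp (0.182), the last of which encodes properdin of the alternative complement pathway. For the mean of Mrc1, Lyve1 and Cd163 they were Dnlz (0.0496), Sil1, Zfp354a, Suox and Selenoo (0.127). Because Mrc1, Lyve1 and Cd163 did not run together, their mean varied little, with an SD of 0.08 on the log2 scale over the 6 libraries, against 0.24 and 0.26 for the other two. Of these 15 genes only Cfp was in one of the lists used here.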

How the data were processed

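Per the labels' protocols and processing notes, the authors mapped pairs of 93-base reads to GRCm38 with STAR 2.5.2 and used DESeq2 for the comparison. How reads were counted per gene, and on which strand, is unstated in the sources used here. The authors deposited whole-number read counts per gene, not normalized, which were used here. From the authors' deposited DESeq2 table (mean signal per gene, log2 fold changes and standard errors, test scores and p-values), only the adjusted p-values were used. The 6 columns of deposited regularized log values were not used.

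Of 48733 rows, 24 were spike-in and transgene sequences, between 0.0015% and 0.0045% of counts, and entered neither totals nor tests. Symbols, coordinates and lengths came from GENCODE M21 (48349 identifiers matched). Genes were filtered with filterByExpr, scaled by TMM and tested two-sided with edgeR 4.0.16 (glmQLFit and glmQLFTest, default options; R 4.3.3), with group as the only term, over 20733 genes. SE is the size of the log2 fold change over the root of F. The 95% interval uses the residual 4 and prior 5.53 degrees of freedom. No pair of libraries was a repeat (chi-square per degree of freedom 21.0 to 49.0). The labels give 3 separate mice per group, so p-values measure the spread between mice. Counting errors cover counting only. The test was checked on simulated data.

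The 10 genes, the other 17 lists and the tests were chosen with earlier results of these data known. Named genes were the 10, Hgf, a set given by name, up to 2 others per list with the smallest p, and the 5 nearest per pattern. A gene of these lists is not reported here. Alternatives were RLE normalization, no filter, a filter of 1 CPM in 3 libraries, DESeq2 1.42.0, the other legacy option of the fit, an Xist covariate and leaving out each library. The fit without both Xist libraries and the transcript length were added after seeing the data.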

Additional observations from a re-analysis of the deposited data

Results flagged for a closer look

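Reads of the Neo cassette, which entered no comparison, exceeded the 95% counting intervals of all 3 wild-type libraries in 2 knock-in libraries. They were at 2.06 CPM of unscaled gene counts in knock-in replicate 1 and 6.99 CPM in knock-in replicate 2. In the library labelled knock-in replicate 3 they were at 0.208 CPM, against 0.207, 0.275 and 0.236 CPM in the wild-type libraries. The Neo intervals cover counting error only, and the groups of 3 libraries were too small for a test of single outlying libraries.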

How the results depend on the processing

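No paired analysis was possible because the replicate numbers were given here in accession order and the mouse numbers in the labels all differ. None of the 10 genes passed the threshold in any of 13 other settings, where their lowest adjusted p was 0.515. Of the 10, 4 (Csf1r, Cd68, Mrc1 and Lyve1) kept their sign in every setting. When each library was left out in turn, log2 fold changes ran from -0.33 to 0.022 for Cx3cr1, -0.23 to 0.14 for Adgre1, -0.19 to 0.15 for C1qa, -0.37 to 0.033 for C1qb, -0.26 to 0.23 for C1qc and -0.049 to 0.15 for Cd163. Of the 56 other genes tested by name, 36 kept their sign. The remaining ranges were Spi1 -0.19 to 0.078, Ptprc -0.19 to 0.10, Tyrobp -0.20 to 0.067, Trem2 -0.23 to 0.50, Tmem119 -0.16 to 0.16, F13a1 -0.22 to 0.11, Folr2 -0.18 to 0.29, Ccr2 -0.18 to 0.26, C1ra -0.18 to 0.18, C1s1 -0.33 to 0.062, C2 -0.14 to 0.24, C3 -0.11 to 0.15, C4b -0.26 to 0.0069, C3ar1 -0.20 to 0.077, Csf2rb -0.19 to 0.037, Csf2ra -0.16 to 0.052, H2-Eb1 -0.37 to 0.0040, H2-Ab1 -0.35 to 0.033, Hba-a1 -0.40 to 0.046 and Pdpn -0.0019 to 0.26. Without both libraries with abundant Xist, Trem2 was at -0.17, Folr2 -0.28, Ccr2 -0.0054, C1ra -0.12, C3 -0.18 and Csf2ra 0.045. The log2 fold change of C3 was -0.000196 with RLE normalization, -0.011 with no filter, -0.0046 in DESeq2 and -0.000799 with the Xist covariate, and Tmem119 at 0.0045 with the stricter filter. Over all genes, 2 were called higher and 5 lower. No filter gave 46 higher and 30 lower, DESeq2 12 higher and 16 lower, the Xist covariate 4 higher, the fit without both libraries with abundant Xist 3 lower, and leaving out each library 0 to 13 higher and 2 to 8 lower. With no filter, 1 gene of the other complement list and 4 of the adipocyte list were called higher. The pigment cell list had 4 genes called lower, and 2 to 4 when a library was left out. Among genes that kept their sign, leaving out 1 library gave -0.53 to -0.12 for Laptm5, -0.50 to -0.05 for Masp1, -0.46 to -0.06 for Elane, -0.77 to -0.15 for Rag1 and -0.58 to -0.01 for Cd79a. Hgf was called in 2 of 13 other settings, DESeq2 and no filter. The cause of these differences was not tested. With 3 mice per group, the 95% intervals of the 10 genes reached down to -0.70 for Cd68 and up to 0.83 for Lyve1.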
